A study of Mus musculus with 2 samples.

Results

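Caspases are cysteine proteases that cut their substrates after aspartate. The 7 caspase genes described here are Casp1, Casp2, Casp4, Casp6, Casp8, Casp9 and Casp12. They were taken by gene name from the probes of a mouse expression microarray that carried 37074 gene names in all, and 10 probes bore one of the 7 names. Mouse cardiomyocytes (MCMs) were purchased and, per the paper, had been passaged before use. They received either a negative control siRNA (siRNA-NC) or an siRNA against Ppp2r5d (siRNA-Ppp2r5d), both with Lipofectamine RNAiMAX. Ppp2r5d encodes a regulatory B subunit of protein phosphatase 2A, and the study asked how its loss bears on dilated cardiomyopathy. Cells of both groups grew in low-serum DMEM, were moved to glucose-free medium 48 h after transfection, and gave total RNA at 64 h, so that glucose withdrawal was common to both groups. Each group had 1 array, so no spread between cultures could be measured, no test was possible, and every difference below describes those 2 arrays without a replicate check.

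Initiator caspases are activated on large adaptor platforms. Casp8 is recruited to death receptors, Casp9 to the apoptosome that cytochrome c sets up when it leaves mitochondria, and Casp2 to the PIDDosome. Executioner caspases such as Casp6 are then cleaved and dismantle the cell. Inflammatory caspases work beside this chain: Casp1 is activated in inflammasomes and matures interleukin-1β and interleukin-18, Casp4 (long known as caspase-11 in the mouse) senses intracellular lipopolysaccharide and cleaves gasdermin D, and Casp12 lies in the same gene cluster and has been linked to endoplasmic reticulum stress. In the heart, loss of cardiomyocytes through caspases has been studied widely in failing and ischaemic muscle. An array of this kind measures mRNA only, whereas caspases are controlled largely by cleavage of the protein.

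The inflammatory caspases were the members with the higher signal after the knockdown, and the sequences read by their probes are shown because those probes carry the difference. The last 30 bases of each probe are given, with the hexamer AATAAA, the letters of the common polyadenylation signal, in capitals where it occurs.

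Casp1: aatacttccttagatgatgcAATAAAtatt

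Casp4: ccatagacaagcaaacaagcaaaAATAAAa

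Casp12, first probe: tgcctagtggctacctaccattcctttcaa

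Casp12, second probe: aacaaacccaagattctcatcatgcaggcc

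On the mm9 build that the array files use, the Casp1 probe lies at chr9:5307206-5307265, the Casp4 probe at chr9:5336658-5336717, and the Casp12 probes at chr9:5372258-5372317 and chr9:5353799-5353858. Whether a probe falls in coding sequence or in an untranslated region was not analysed here. Probes of different caspases had at most 7 bases in a row in common over 42 pairs of probes, and 0 of the 10 probes held a run of 20 bases found in a probe of another gene among the 56605 probe sequences searched.

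The 250 bases upstream of the RefSeq start of Casp1, Casp4, Casp12 and, for contrast, the initiator Casp8 are given next. Capitals mark matches on either strand to 3 motifs of inflammatory and interferon signalling, namely the gamma-activated site TTCNNNGAA, the core AANNGAAA bound by interferon regulatory factors and the NF-κB consensus. TATAAA, the letters of the TATA box, was searched too and occurred in none of the 7 caspase promoters. The motifs were chosen after the expression values had been seen.

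Casp1, GRCm38.p6 chr9:5298267-5298516, + strand: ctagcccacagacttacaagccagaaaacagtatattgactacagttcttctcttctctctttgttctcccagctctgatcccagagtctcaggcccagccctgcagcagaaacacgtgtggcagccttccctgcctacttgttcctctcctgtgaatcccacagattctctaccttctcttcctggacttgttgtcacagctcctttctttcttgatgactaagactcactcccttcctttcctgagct

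Casp4, GRCm38.p6 chr9:5308599-5308848, + strand: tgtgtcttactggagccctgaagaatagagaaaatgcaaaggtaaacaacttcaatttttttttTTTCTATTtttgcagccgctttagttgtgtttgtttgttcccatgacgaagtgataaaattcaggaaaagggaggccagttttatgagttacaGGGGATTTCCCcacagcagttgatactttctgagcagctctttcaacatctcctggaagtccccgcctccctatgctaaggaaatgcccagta

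Casp12, GRCm38.p6 chr9:5345226-5345475, + strand: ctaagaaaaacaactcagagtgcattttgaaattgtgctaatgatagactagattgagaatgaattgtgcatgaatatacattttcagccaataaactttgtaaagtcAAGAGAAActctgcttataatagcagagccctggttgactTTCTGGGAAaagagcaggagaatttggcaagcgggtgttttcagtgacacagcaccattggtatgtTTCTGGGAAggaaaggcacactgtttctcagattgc

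Casp8, GRCm38.p6 chr1:58802252-58802501, + strand: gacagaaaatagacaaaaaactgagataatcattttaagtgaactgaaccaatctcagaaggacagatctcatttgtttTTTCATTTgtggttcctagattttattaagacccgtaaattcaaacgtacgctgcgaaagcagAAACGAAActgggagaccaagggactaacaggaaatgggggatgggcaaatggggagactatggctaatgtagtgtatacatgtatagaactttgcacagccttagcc

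Casp1, the member with the highest fold change, held none of the motifs. Casp4 held an NF-κB match 93 to 83 bases before the start, where overlapping windows matched, and an interferon regulatory factor core. Casp12 held the same gamma-activated site, TTCTGGGAA, at 2 places and 1 interferon regulatory factor core. Casp8, whose log2 fold change lay near 0, held 2 such cores, and Casp2, Casp6 and Casp9 held none of the motifs. Of 27025 promoters of this length, 7.18% held TTCNNNGAA, 21.6% AANNGAAA, 3.75% the NF-κB consensus and 13.0% TATAAA, and these motifs partly overlap in the letters they allow. The motifs therefore did not follow the fold changes gene by gene, and a match is only a description of letters. The count of CpG pairs in the 250 bases was 1 for Casp1, 3 for Casp4 and 1 for Casp12, against 5 for Casp8, 11 for Casp6, 17 for Casp2 and 25 for Casp9, with a median of 6 over all promoters. Casp1, Casp4 and Casp12 stand next to each other in the GRCm38 gene table.

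Signal was sufficient for all members. On the siRNA-NC and siRNA-Ppp2r5d arrays, 35544 and 35174 of 59305 non-control spots were well above background, none was saturated, and 20311 genes were measured on both. The targeted gene was checked first: the Ppp2r5d intensity was 4701 after siRNA-NC and 676 after siRNA-Ppp2r5d, which gave a log2 fold change of -2.61. The labelled cell type was only partly borne out, since 8 of 15 cardiomyocyte markers were measured on both arrays, Myh6, Ryr2 and Mybpc3 were above background on 1 array only, and Actn2, Pln, Myl2 and Myl7 on neither. Of the markers of other cells, 8 of 10 fibroblast, 7 of 10 macrophage, 1 of 6 endothelial and 5 of 5 smooth muscle genes were measured. The cultures thus held transcripts used as markers of several cell types, and whether these came from separate cells was not tested. In such bulk RNA, fewer cells of a type and less RNA per cell cannot be told apart.

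All 10 caspase probes were well above background on both arrays, each with 1 spot. Values below are background-corrected intensities, and fold changes are siRNA-Ppp2r5d over siRNA-NC after each array was divided by its own 75th percentile, which was 592 on the control array and 518 on the knockdown array. An error given after ± combines the scanner software's error for the spots of both arrays and covers no difference between cultures. It is the software's own estimate, and with 1 spot per caspase probe it was not measured from repeat spots. For 293 probes of the array with at least 10 spots, the log2 fold change had a median standard deviation of 0.036 between spots. The software's error was larger than this, and statements below in spot errors depend on it. Because probes differ in brightness for reasons unrelated to mRNA amount, levels were not compared between genes.

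**Figure D1:**
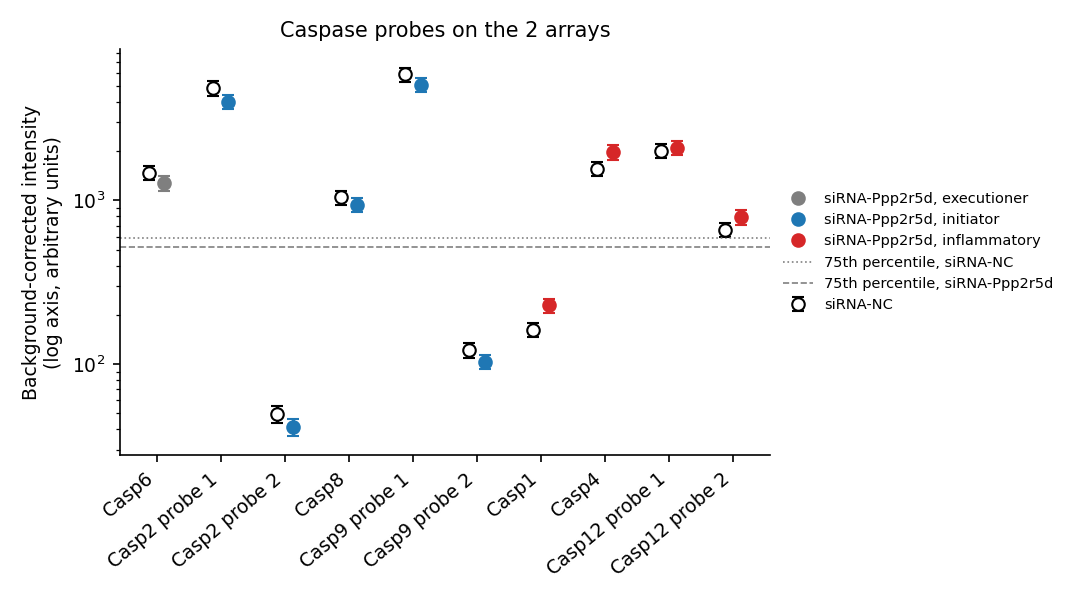
Background-corrected intensity (log axis, arbitrary units) of the 10 caspase probes on the siRNA-NC array (open circles) and the siRNA-Ppp2r5d array (filled circles, coloured by class), with bars for the software error of the spot and horizontal lines at each array's 75th percentile (592 and 518). The probes of Casp1, Casp4 and Casp12 were brighter on the siRNA-Ppp2r5d array before any scaling, and the other 6 probes were dimmer.

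Casp1, the inflammasome protease, had the highest fold change of the members. Its intensity was 163 after siRNA-NC and 228 after siRNA-Ppp2r5d, and the scaled log2 fold change was 0.68 ± 0.21, or 1.6-fold. The siRNA-Ppp2r5d array was the higher one even before scaling, and 2.39% of the 20311 measured genes had a higher log2 fold change than Casp1. Casp4, the lipopolysaccharide sensor, was measured at 1561 and 1971, a log2 fold change of 0.53 ± 0.20, or 1.44-fold. It was again higher on the siRNA-Ppp2r5d array, with 4.19% of genes above it.

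Casp12 was read by 2 probes that differed in size but not in direction. The brighter probe gave 2011 after siRNA-NC and 2101 after siRNA-Ppp2r5d, a log2 fold change of 0.25. The second gave 660 and 790, a log2 fold change of 0.45. Their mean was 0.35 ± 0.14, or 1.28-fold, with 9.32% of genes above it, so that Casp12 lay within the range of 5th to 95th percentile of all genes, -0.57 to 0.49, while Casp1 and Casp4 lay above it.

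The initiators lay close to 0. Casp8, the protease of death receptor complexes, was measured at 1044 and 938 on the siRNA-NC and siRNA-Ppp2r5d arrays, a scaled log2 fold change of 0.037 ± 0.20. Casp9, the protease of the apoptosome, gave 5880 and 5104 with its first probe and 122 and 104 with its second, and the log2 fold changes were -0.013 and -0.042. The second Casp9 probe spans 7045 bases of mm9, from chr4:141352716-141359760, and so crosses an intron. Casp2, the PIDDosome protease, gave 4856 and 4009 with one probe and 49.6 and 41.1 with the other, and the log2 fold changes were -0.085 and -0.079. In each case the dimmer siRNA-Ppp2r5d signal was about the size of the difference between the 2 arrays' 75th percentiles, and the probes of 1 gene gave like values. The gene values were -0.027 ± 0.15 for Casp9 and -0.082 ± 0.16 for Casp2.

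Casp6, the executioner that cleaves lamins, was measured at 1476 and 1274, a log2 fold change of -0.021 ± 0.20. It lay among the initiators, and as 1 gene it does not stand for the executioners as a class. Casp2, Casp6, Casp8 and Casp9 each lay within their own spot error of 0, and the signs of Casp6, Casp8 and Casp9 changed under some of the alternative settings.

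Set side by side, the median log2 fold change was 0.53 over the 3 inflammatory caspases and -0.027 over the 3 initiators, against 0.025 for all measured genes. The lowest inflammatory member, Casp12 at 0.35, lay 0.32 ± 0.25 above the highest of the other 4 members, Casp8 at 0.037, a gap of 1.26 spot errors. The neighbours Casp1 and Casp4, and Casp4 and Casp12, differed by less than 2 spot errors, as did every pair among Casp2, Casp6, Casp8 and Casp9. Of the 12 pairs that set an inflammatory caspase against another member, 7 differed by more than 2 spot errors and 5 did not, namely Casp12 with Casp6, Casp8 and Casp9, and Casp4 with Casp6 and Casp8. The count rests on the software's error, which was larger than the measured spread of repeat spots. Spot error covers no difference between cultures, which was not measured, so this count is a description and not a test of the knockdown. The separation of the inflammatory caspases is a statement about these 7 genes and not about every caspase of the mouse.

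No caspase of the 7 reached 2-fold in either direction. Of all 20311 measured genes, 0.881% reached 2-fold upward and 1.06% reached it downward. Casp1 alone passed 1.5-fold, upward, where 3.34% of all genes did, and no member was 1.5-fold lower, where 4.63% of all genes were. The Casp1 call ended in 2 of 10 alternatives, with a log2 fold change of 0.50 under spike-in scaling and 0.54 under normexp background correction.

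**Figure D2:**
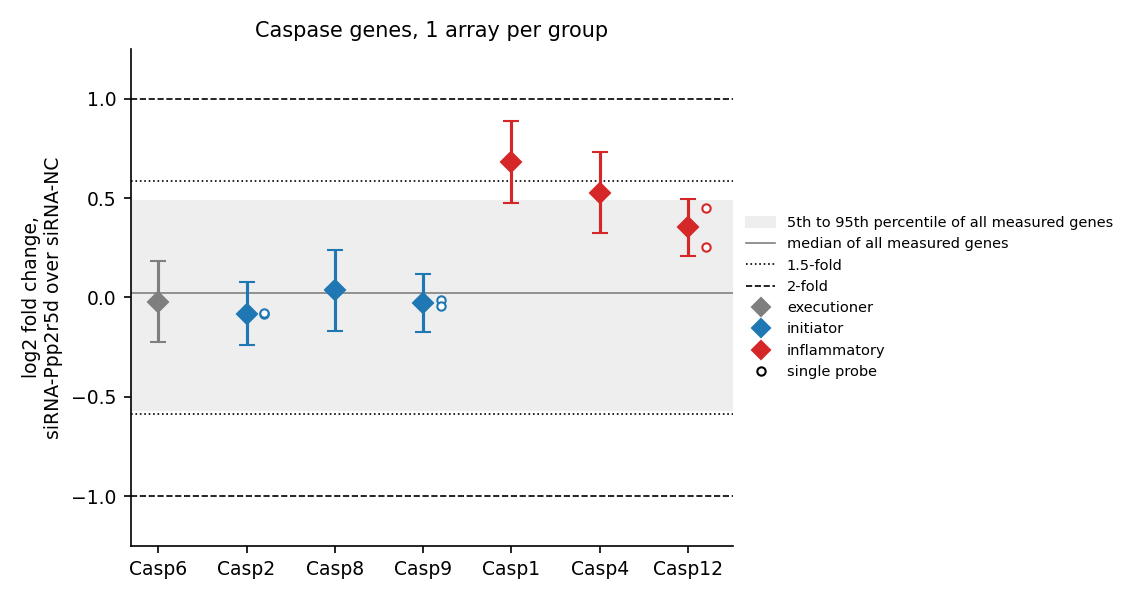
log2 fold change (siRNA-Ppp2r5d over siRNA-NC) of each of the 7 caspases (diamonds, coloured by class) with its spot error as a bar, single probes as open circles where a gene had 2, the 5th to 95th percentile of all measured genes in grey (-0.57 to 0.49) and lines at 1.5-fold and 2-fold. Casp1 (0.68) lies above the upper 1.5-fold line, Casp4 (0.53) above the grey band, Casp12 (0.35) inside it, and the other 4 between -0.082 and 0.037.

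Markers of macrophages, which express inflammatory caspases, were read beside these genes. Of 10 markers, 7 were measured, with log2 fold changes from -0.77 for Cd68 to 0.79 for Aif1, a median of 0.034, and 4 above and 3 below 0. Their summed intensity was 17.0 times the array's 75th percentile after siRNA-NC and 16.2 times after siRNA-Ppp2r5d. The brightest markers in this sum were Itgam and Cd14, at 4006 and 2839 after siRNA-NC, so it says little about dimmer ones. Itgam was measured by 1 of 2 probes and Ptprc by 1 of 7. Adgre1, Fcgr1 and Mrc1, which define resident and activated macrophages, were not well above background on either array. The macrophage markers had no common direction. The log2 fold changes of the other marker lists ran from -0.19 to 0.89 for cardiomyocytes, -0.31 to 1.08 for fibroblasts and -0.38 to 2.41 for smooth muscle, with 1 fibroblast and 1 smooth muscle gene more than 2-fold higher. The summed intensity over the 75th percentile was 15.6 on both arrays for cardiomyocytes, 55.6 after siRNA-NC and 51.9 after siRNA-Ppp2r5d for fibroblasts, and 25.1 and 38.0 for smooth muscle. These sums weigh their brightest genes most, Actc1 for cardiomyocytes (6443 and 5268), Dcn for fibroblasts (10877 and 8646) and Tagln for smooth muscle (8174 and 12887). Of the 5 smooth muscle genes, 2 had a log2 fold change above 0 and 3 below. Single markers thus differed more between the arrays than any caspase, and the part of the cell types in the caspase values was not tested.

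The genes that work with the caspases were followed through lists of 75 genes, chosen for their roles with earlier results of these data known. Of these, 64 were measured on both arrays, 26 with a log2 fold change above 0 and 38 below, with a median of -0.047. Among all measured genes, 42.8% lay below Casp6 at -0.021 and 52% below Casp8 at 0.037, so the share below 0 lay between these. Il33 was at least 2-fold lower, 1.56% of the 64 against 1.06% of all genes, and no gene was 2-fold higher, against 0.881% of all genes. The Il33 call ended under normexp background correction, at -0.79. At 1.5-fold, 5 of the 64 genes passed, or 7.81%, a share near that of all genes (3.34% upward and 4.63% downward).

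Around the inflammatory caspases, the measured genes of the inflammasome and pyroptosis list stood on the other side of 0. The list was broader than the inflammasome and its products, and also held Il33, Il1r1 and Txnip. Of all measured genes on the arrays, between 42.8% and 52% had a log2 fold change below 0. In the list, all 8 genes measured of 15 had a log2 fold change below 0, with a median of -0.21. They ran from -1.11 for Il33 to -0.072 for Pycard, the adaptor that joins sensors to Casp1. This count depended on the list, since the Naip genes, which also act in inflammasomes, were listed with the inhibitors of apoptosis. There Naip2 was at 0.22, Naip5, measured by 1 of its 2 probes, at 0.0082 and Naip6 at -0.014. Nlrp1a, at -0.19, was measured by 1 of its 3 probes. Il33, an interleukin-1 family cytokine, was 378 after siRNA-NC and 154 after siRNA-Ppp2r5d as the geometric mean of 2 probes, whose log2 fold changes were -1.26 and -0.95. Both probes were lower on the siRNA-Ppp2r5d array. The 2 Pycard probes differed in sign, at 0.078 and -0.22, and Pycard, Nek7 and Gsdmd lay between -0.087 and -0.072, so their sign carries little weight. Il18, the Casp1 substrate, was 1635 and 952, a log2 fold change of -0.59, and Gsdmd, the pore-forming substrate of Casp1 and Casp4, was 344 and 284, a log2 fold change of -0.082. These 2 were named for their place next to Casp1 after their values had been seen. The sensors Nlrp1b, Nlrp3, Nlrc4 and Aim2 and the cytokines Il1a and Il1b were not well above background on either array, and the sensor Mefv only on the siRNA-Ppp2r5d array. The higher Casp1 and Casp4 signal thus stood beside partners of this list that were near 0, below 0 or not measured on both arrays.

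Around Casp8, 14 of 15 genes of death receptor signalling were measured, 8 above and 6 below 0, with a median of 0.021. The list held the highest value of all lists, Tnfrsf10b, a receptor for the death ligand TRAIL, at 0.79, with 3 probes from 0.59 to 1.14. It also held Tnfrsf25, a death domain receptor, at -0.85, from 2240 to 1085. Receptors of 1 list thus lay on both sides, while Casp8 itself lay near 0, and Fasl was not well above background.

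All 6 genes listed for mitochondrial release and the apoptosome, the platform of Casp9, were measured, with a median of -0.027. They ranged from Endog, a mitochondrial nuclease, at -0.34 to Aifm1, a flavoprotein released with it, at 0.21. Of the Casp2 platform, Pidd1 was at -0.11 and the adaptor Cradd at 0.20, and Madd, a death domain protein that binds a TNF receptor and is no part of the PIDDosome but was in the same list, was at -0.30. The probes of each gene disagreed. Cradd was at 0.47 on a dim probe (29.2 to 35.3) and -0.060 on a brighter one (1025 to 861). Madd was at -0.57 on a dim probe (25.5 to 15.0) and -0.028 on a brighter one (920 to 790). The 3 probes of Pidd1 ranged from -0.41 to 0.28, so no direction could be read for these genes. Of the inhibitors of apoptosis, 7 of 9 were measured, from Birc5 (survivin, which also acts in cell division) at -0.80 to Naip2 at 0.22, and Birc3 and Naip1 were not well above background. Both probes of Birc5 were lower, at -0.74 and -0.85, whereas the Naip genes are near-identical copies whose probes may share signal.

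Downstream, 12 of 12 caspase substrates were measured, 6 above and 6 below 0, from Lmnb1, a nuclear lamin, at -0.36 to the kinase Rock1 at 0.15. Of the interferon and toll-like receptor regulators, 14 of 15 were measured, 7 above and 7 below 0, with a median of -0.045. They ranged from Stat2, which carries the type I interferon signal, at -0.34 to Irf1, an interferon-induced transcription factor, at 0.57. The Stat2 value came from a dim probe at -0.68 (26.3 to 14.4), as the brighter one was at -0.0065 (3093 to 2696). The 2 Irf1 probes disagreed too: one went from 96.3 to 198, a log2 fold change of 1.23, and the brighter one from 5252 to 4342, a log2 fold change of -0.083. The mean for Irf1 therefore rests on its dim probe, and Irf8 was not well above background.

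**Figure D3:**
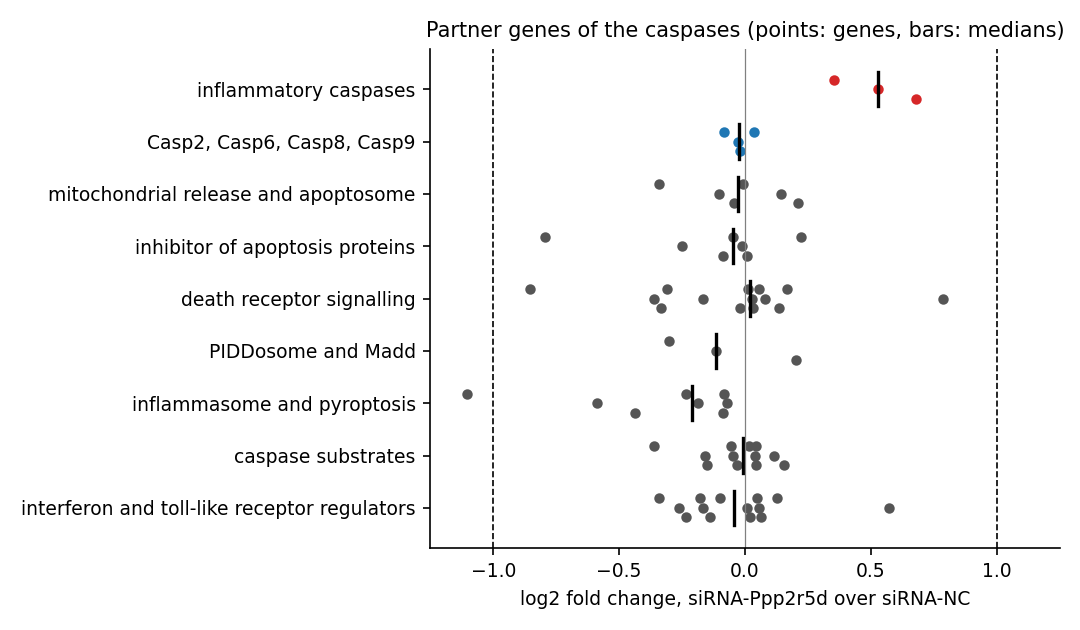
log2 fold change (siRNA-Ppp2r5d over siRNA-NC) of the measured genes of each list (points) with list medians (bars), the 3 inflammatory caspases in red, Casp2, Casp6, Casp8 and Casp9 in blue and all other genes in grey, with dashed lines at 2-fold. The 8 inflammasome and pyroptosis genes lie below 0 (median -0.21, 3 of them between -0.087 and -0.072) and the inflammatory caspases all above (median 0.53).

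**Figure D4:**
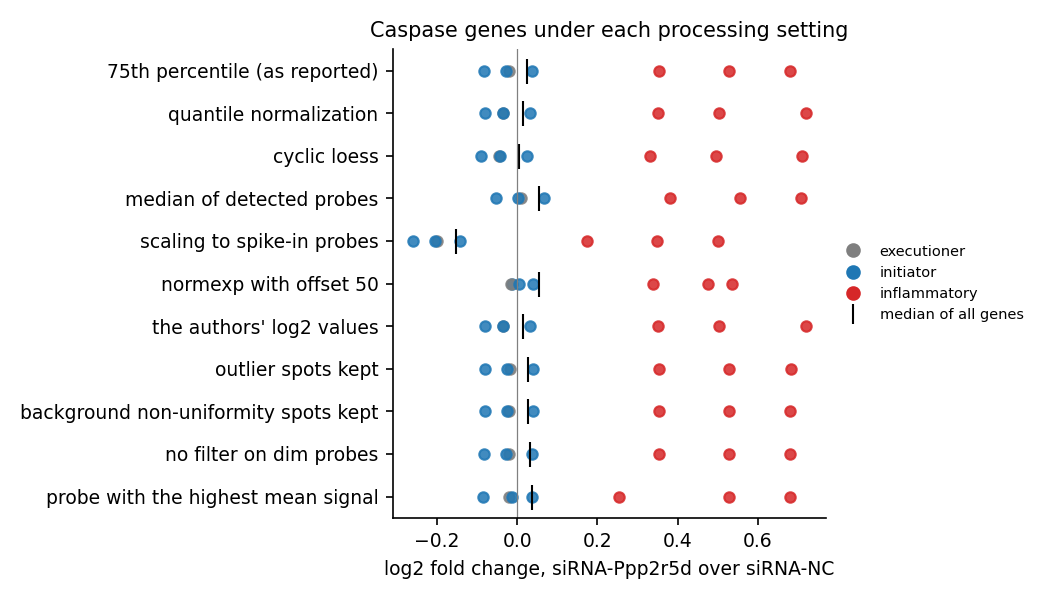
log2 fold change (siRNA-Ppp2r5d over siRNA-NC) of the 7 caspases (points, coloured by class) under the reported scaling and each of 10 alternatives (rows), with the median of all genes as a vertical mark. The lowest inflammatory caspase lies above the highest of the other 4 in each row, though 5 of the alternatives shift all 7 together and could not change that, and scaling to spike-in probes moves all points to the left together.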

How the data were processed

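One-colour Agilent SurePrint G3 mouse v2 arrays were hybridised with Cy3-labelled cRNA, 1 per group, and the groups were taken from the treatment labels. Per the file headers, spots were read with Feature Extraction 10.7.1.1. From the scanner files the authors deposited, the background-corrected intensity of each spot was used, as was a table of normalized log2 values, as an alternative. These deposited log2 values differed from a quantile normalization of the intensities by a median of 0.000127. Control spots were left out, as were the 226 (siRNA-NC) and 188 (siRNA-Ppp2r5d) spots marked as outliers. Background outliers were added to those marks after first values had been seen. The log2 intensities were averaged per probe, the array's 75th percentile was subtracted, and a gene was the mean of its probes well above background on both arrays. The members and lists were chosen with earlier results of these data known. The 7 caspases, Ppp2r5d, list genes past 2-fold and each list's extremes were named. Some further caspase genes are not reported here, so statements on classes cover the 7 members only. Nothing was tested for significance, since there was 1 array per group, whose number limits the precision. A 2-fold threshold followed the study's methods, with 1.5-fold as an alternative. Gene steps were tested on simulated data. Promoters were from RefSeq (GRCm38.p6) and matched all 7 genes, with the first of 2 entries used for Casp4. Exact positions of probes are in mm9, and no coordinates were converted. Python 3.11.15, R 4.3.3 and limma 3.58.1 were used.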

Additional observations from a re-analysis of the deposited data

How the results depend on the processing

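Values were recomputed under 10 alternatives of scaling, background, filter and probe choice and under a 1.5-fold threshold. Keeping spots marked for background non-uniformity was chosen after seeing the data. It gave 0.6815 for Casp1 and left the counts of caspases and pathway genes past 2-fold as they were. The log2 fold changes ranged from 0.50 to 0.72 for Casp1, 0.35 to 0.56 for Casp4, 0.17 to 0.38 for Casp12 and -0.26 to -0.012 for Casp2, with no change of sign. Casp6, Casp8 and Casp9 changed sign in 1, 1 and 2 of the 10 alternatives. Of the 10 alternatives, 5 moved the caspases by more than 1 common shift and so could change their order, and the lowest inflammatory caspase lay above the other 4 members in 5 of these 5. These 5 are not independent, as quantile normalization and the deposited log2 values gave nearly the same result, with Casp1 at 0.7203 and 0.7202. Scaling to spike-in probes shifted the median of all genes by -0.18. Under it the medians were -0.14 for the 7 caspases, -0.21 for the initiators and 0.35 for the inflammatory caspases, and 2 pathway genes passed 2-fold. Normexp background correction gave a median of 0.47 for the inflammatory caspases and 0 pathway genes past 2-fold, with Il33 at -0.79. The 1.5-fold call of Casp1 ended under both, at 0.50 and 0.54. With no filter on dim probes, 2 pathway genes passed 2-fold and 7 of 8 genes of the inflammasome and pyroptosis list, not 8, were below 0. With the 1.5-fold threshold, 1 caspase and 5 pathway genes (7.81%) passed. The cause of these differences was not tested, beyond the construction of each setting. No paired analysis was possible because neither group had more than 1 array, and for the same reason no replicate could be left out. Dim probes limit precision, the lowest signals well above background being 14.9 and 13.5.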
